A study of Mus musculus with 6 samples.

Results

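The genes of the cytosolic ribosome encode the proteins that, together with ribosomal RNA, form its large (Rpl, Rplp) and small (Rps) subunits. They were taken from the expression table by symbol, together with the paralogues that the same symbols cover, and rows that the table classes as pseudogenes were left out (1 symbol match, Rps12l1). This gave 82 of 28987 genes, 51 of the large and 31 of the small subunit. They lie on 19 chromosomes, with 4 on chromosome X. By symbol the set is what its name says, except that proteins that are part of the ribosome under other symbols, such as Fau, Rack1 and Rps3a1, fall outside it and are described separately.

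Expression was measured by RNA-seq in EGFP+ ventricular cells, sorted 4 weeks after pressure overload was imposed on the heart by tying a narrowing around the transverse aorta (TAC). All mice carried a MerCreMer cDNA, a tamoxifen-activated Cre recombinase, knocked into the Postn locus, and an eGFP reporter in the Rosa26 locus that Cre switches on, so that cells with a history of Postn expression were sorted. The 3 control libraries carry only these alleles per the labels, and the 3 libraries labelled Hsp47-deleted come from mice that are also Hsp47flox/flox. All were given tamoxifen (100 mg/kg intraperitoneally, given more than once, and 40 mg/kg in chow per the labels), and TAC was done at 8 to 10 weeks of age. Controls 3 and 4 are labelled with one sequencing run (here the first run), and control 2 and all 3 Hsp47-deleted libraries with another (the second run), so the comparison of label rests on 1 control within a run. The replicates carry separate identifiers, and nothing further in the labels says how the cells of different animals were kept apart, so p-values measure the spread between these libraries. RNA was amplified before the libraries were made. The deposited values are log2(value + 1) of an unnamed linear unit, so the number of reads behind a value is unknown and no order of level between genes is read from them. With bulk libraries, a different make-up of the sorted cells and a different RNA content per cell cannot be told apart.

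Ribosomal protein genes are among the most strongly transcribed genes of a growing cell, and their products are made in near equal amounts, since a ribosome holds a single copy of most of them. Their mRNAs typically start with a C followed by a run of pyrimidines, the 5′ terminal oligopyrimidine (TOP) tract, through which mTORC1 and Larp1 control their translation as a group. Several of the proteins have a second role, such as Rpl5 and Rpl11, which bind Mdm2 and so stabilise p53 when ribosome assembly fails.

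The start sites show what the members share at the level of sequence. RefSeq promoters on GRCm38.p6 were matched by symbol for 62 of the 82 genes (74 start sites). In each line the 30 bases run from 15 before the annotated start, and capitals mark the unbroken run of pyrimidines that begins at the start. The lines were picked to show a tract in genes that the results below turn on (Rps27, Rps15a, Rps6, Rps10 and Rps18) and in genes with the longest tracts that begin with C (Rpl15 and Rpl35), with Rpl5 as a start that has none.
Rps27, chr3:90213634-90213663, minus strand: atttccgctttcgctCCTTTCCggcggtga
Rps15a, chr7:118116133-118116162, minus strand: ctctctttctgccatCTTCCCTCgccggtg
Rps6, chr4:86857353-86857382, minus strand: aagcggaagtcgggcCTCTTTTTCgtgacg
Rps10, chr17:27635230-27635259, minus strand: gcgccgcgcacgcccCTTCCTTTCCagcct
Rps18, chr17:33955651-33955680, minus strand: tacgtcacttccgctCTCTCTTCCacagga
Rpl15, chr14:18270972-18271001, minus strand: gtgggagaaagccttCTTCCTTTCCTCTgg
Rpl35, chr2:39005117-39005146, minus strand: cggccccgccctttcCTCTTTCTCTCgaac
Rpl5, chr5:107900513-107900542, plus strand: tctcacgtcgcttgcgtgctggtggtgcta

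A C at the annotated start followed by at least 4 pyrimidines (C or T) was found in 13 of the 62 genes (20.97%), against 3.01% of all 27025 genes with a start site in the same source and 2.72% of the other protein-coding genes. Counted per start site, the shares were 17.6% of the members' 74 and 2.51% of all 32851. Within 5 bases of the annotated start such a tract began in 29 of the 62 genes (46.8%), against 21.96% of the other protein-coding genes, so that the wider window raised the share in both. In the 250 bases before the start, on either strand, the motif CCGGAAG was present in 17 genes (27.4% against 10.7% of the other protein-coding genes) and GGGCGG in 32 (51.6% against 49.1%). AAGATGG was present in 5 genes (8.06% against 4.94%) and TATAAA in 4 (6.45% against 12.7%). These shares are descriptions of the letters in these windows. No tract length was compared with expression.

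Serpinh1, which encodes Hsp47, was checked first. Its log2 value was 6.28, 6.10 and 7.60 in controls 3, 4 and 2 and 6.87, 6.67 and 6.66 in Hsp47-deleted libraries 1, 2 and 3. The values of the groups overlap, and the log2 difference was 0.07 (standard error 0.43, limma, BH-adjusted p = 0.947), or -0.87 against control 2 alone. The groups are therefore called by their labels in what follows.

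Ribosomal protein genes had higher values in the Hsp47-deleted libraries than in the first-run controls, and so they did in control 2, which shares the run of the deleted libraries. The median log2 value of the 78 tested members was 6.95 and 6.85 in controls 3 and 4, 8.90 in control 2, and 9.19, 8.92 and 9.50 in Hsp47-deleted libraries 1, 2 and 3. Control 2 thus sat close to the lowest library of the deleted group and about 2 log2 units above the other controls. The median of all tested genes, by contrast, stayed from 2.75 to 3.43 in the 6 libraries.

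**Figure D1:**
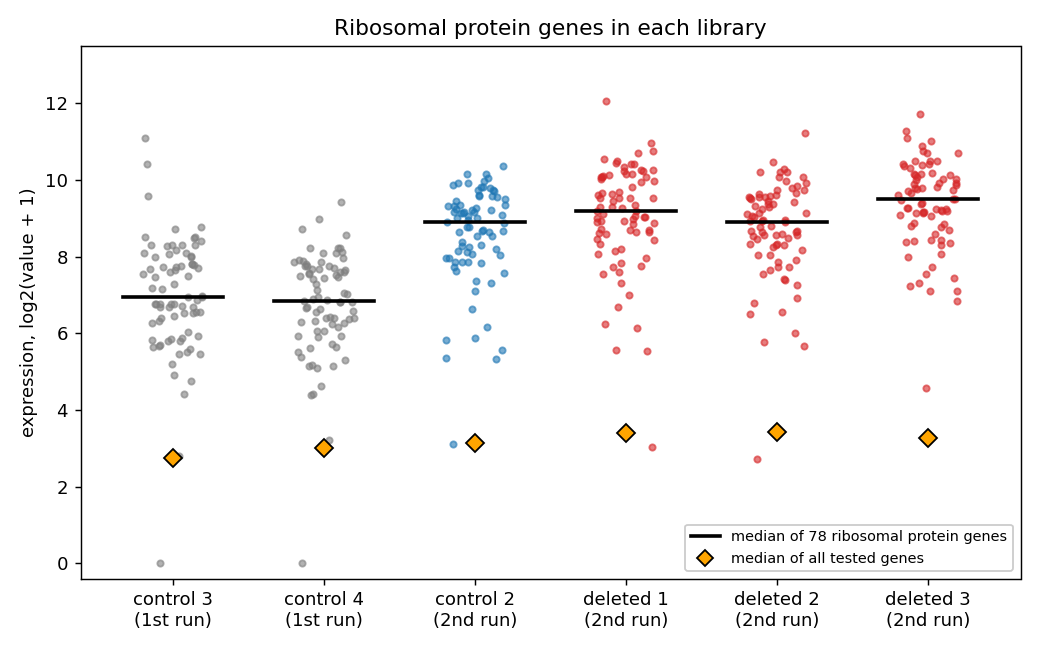
Expression of the 78 tested ribosomal protein genes (points, log2(value + 1)) in each of the 6 libraries, with their median (black bar) and the median of all tested genes (diamond). The points of control 2, from the second run, lie level with those of the 3 Hsp47-deleted libraries and above controls 3 and 4.

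Summed on the linear scale, the 82 genes made up 2.34% and 1.54% of the listed values in controls 3 and 4, 4.80% in control 2, and 7.16%, 5.28% and 7.73% in the Hsp47-deleted libraries. This averaged 2.89% ± 1.70 (SD, n = 3) over the controls and 6.73% ± 1.28 (SD, n = 3) over the deleted libraries, without overlap. The difference was 3.83 percentage points over all controls and 1.93 against control 2. The shares were not tested. The denominator differed between the groups as well: mitochondrially encoded genes held between 23.5% and 29.4% of the listed values in the 3 controls and between 4.70% and 7.23% in the Hsp47-deleted libraries. As a share of protein-coding genes outside the mitochondrial genome, the members held 3.83%, 2.38% and 8.48% in controls 3, 4 and 2 and 10.0%, 7.27% and 9.92% in the deleted libraries. On that scale control 2 lies within the range of the deleted group. Large subunit genes had a mean share of the whole library of 1.78% in the controls and 3.77% in the deleted group, and small subunit genes of 1.11% and 2.96%, without a test.

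**Figure D2:**
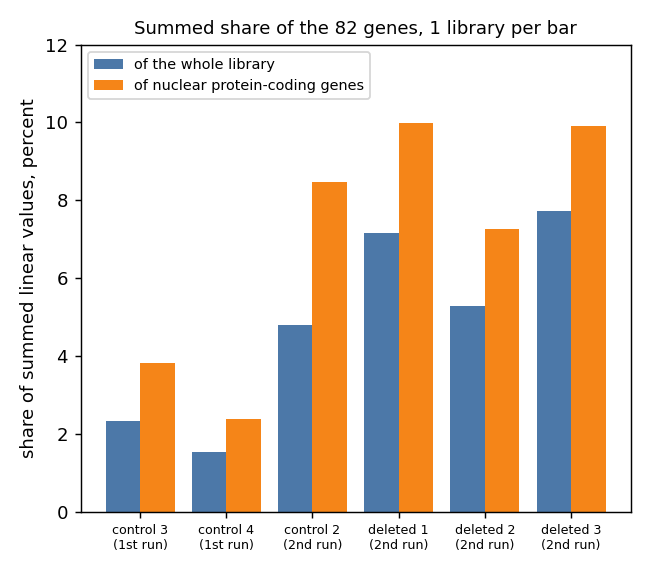
Summed linear values of the 82 ribosomal protein genes as a percentage of all listed values (blue) and of protein-coding genes outside the mitochondrial genome (orange), 1 library per pair of bars. Control 2 reaches 4.80% and 8.48%, and the second of these lies within the 7.27% to 10.0% of the Hsp47-deleted libraries.

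Of the 82 members, 78 had a linear mean of 1 or more, the minimum for a test, and were tested among 15109 genes with limma and Benjamini-Hochberg (BH) adjustment over all of them. One member, Rps27, was called higher at an adjusted p under 0.05 and 0 were called lower, in a comparison where 0.232% of all tested genes were called higher and 0.0132% lower. At an unadjusted p under 0.05, 59 of the 78 were higher and 0 lower, where 14.5% of all tested genes were higher and 0.755% lower. The 3 deleted libraries lay above all 3 controls at 43 of the 78 members (55.1%), against 18.3% of all tested genes, and below all of them at 0 members, against 1.5%. The median log2 difference of the members was 1.37 (quartiles 0.95 and 1.89), against 0.35 for all tested genes, and 76 of the 78 were above 0 as were 74.5% of all genes. The subunits had similar medians, 1.33 over 48 large subunit genes and 1.51 over 30 small subunit genes. With each library centred on its median, the median difference became 0.96 for the members and -0.06 for all genes, and Rps27 was no longer called (limma, BH-adjusted p = 0.0715, where 0.106% of all genes were called higher). At an unadjusted p under 0.05, 28 members were then higher, against 4.73% of all genes. Other scalings gave similar counts: 24 members after rescaling to protein-coding genes (4.58% of all genes), 22 after quantile normalization (4.57%) and 28 after removal of a trend with transcript length (4.91%). No member was called at an adjusted p under 0.05 by limma in those 3, where 0.0927%, 0.0993% and 0.0812% of all genes were called higher.

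**Figure D3:**
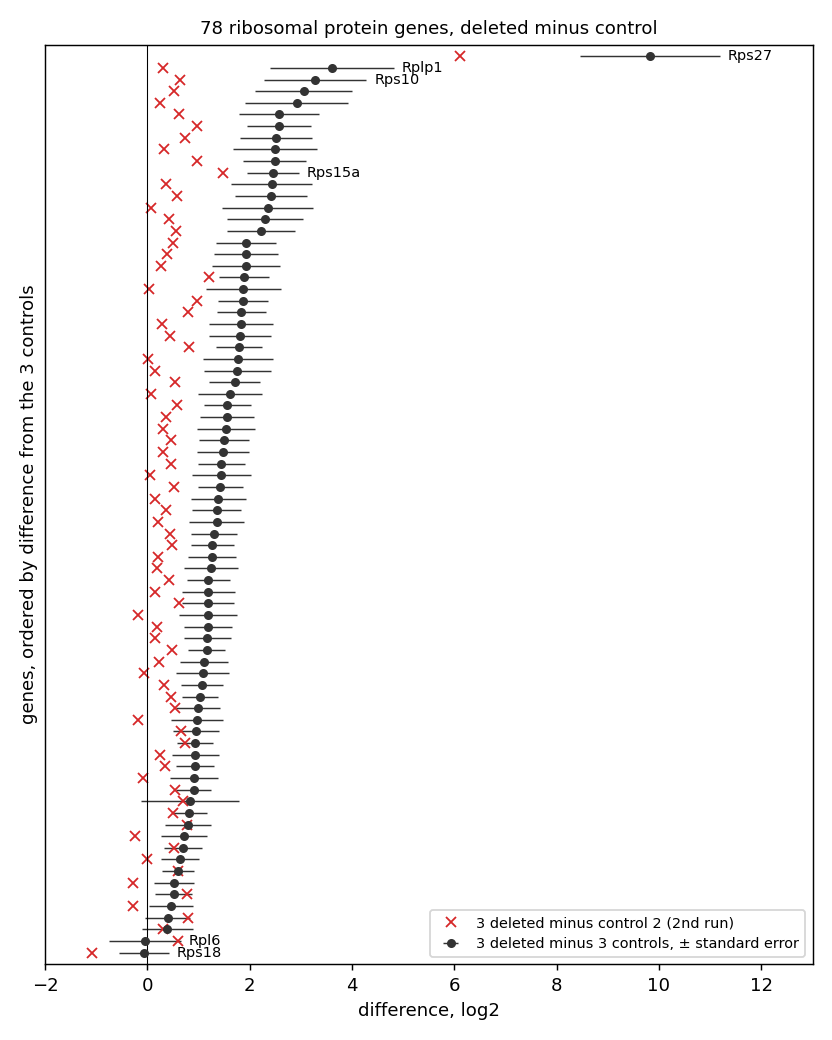
Log2 difference of each of the 78 tested ribosomal protein genes (1 row per gene, ordered by size) between the libraries labelled Hsp47-deleted and the 3 controls (black, with the limma standard error) and between the same libraries and control 2 alone (red crosses, no error, since that run has 1 control). The black points run from -0.06 to 9.82 with a median of 1.37, and the crosses have a median of 0.42.

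Between the 2 runs, values of the ribosomal protein genes also differed among libraries that share the control label. Control 2 lay above both controls of the first run at 69 of the 78 members (88.5%), against 46.4% of all tested genes. Its median difference from their mean was 1.54 for the members and 0.11 for all tested genes, and 61 members were more than 1 log2 unit higher, against 21.7% of all tested genes. Only Rpl6, Rpl5, Rpl27 and Rpl28 were lower in control 2 (-0.97, -0.60, -0.40 and -0.01). With the values of near-identical gene copies added to each member, Rpl5 and Rpl27 were instead 1.61 and 1.51 higher in control 2, and the members lower there were Rpl6, Rps6 and Rpl28 (-0.90, -0.22 and -0.0491). Among 2234 other tested genes with a longest transcript in the same range as the middle 50% of the members (904 to 1872 bases), the median difference between the runs was 0.50. Across the 78 members, the Pearson correlation of log2 values was 0.90 between controls 3 and 4, from 0.96 to 0.99 among the deleted libraries, from 0.81 to 0.84 between control 2 and the deleted libraries, and from 0.34 to 0.40 between the first-run controls and the deleted libraries. These are correlations over genes of the same libraries, given as a description. They include Rps27, listed at 0 in controls 3 and 4 and at log2 values from 11.24 to 12.07 in the deleted libraries, and were not computed without it.

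Within the second run, the deleted libraries were on average above control 2 at 69 of the 78 members, with a median difference of 0.42 against 0.29 for all tested genes. All 3 lay above control 2 at 48 members (61.5%), against 46.7% of all tested genes, and control 2 was within or above their range at the other 30 (38.5%, against 53.3%). Only Rps27, Rps15a and Rps6 exceeded control 2 by more than 1 log2 unit (9.72% of all tested genes did), and only Rps18 and Rplp0 were below control 2 in all 3 deleted libraries (11.7% of all tested genes were). With near-identical copies added, Rps15a, Rps27 and Rps6 exceeded control 2 by 1.48, 0.80 and 0.51, and Rps18 differed from it by -0.36. With the sequencing run as a covariate in limma, where the estimate of the label rests on control 2 as the only control of its run, 1 member was called (Rps27, BH-adjusted p = 0.00189, where 0.119% of all genes were called higher). At an unadjusted p under 0.05 there were 5 members higher (Rps27, Rps15a, Rpl29, Rpl10 and Rpl10a, against 5.46% of all genes) and 1 lower (Rps18, against 1.27%). Leaving out control 2, so that run and label coincide, gave 62 members called higher by limma at a BH-adjusted p under 0.05, where 16.4% of all genes were. Sequencing run and label can be told apart only through that 1 library.

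**Figure D4:**
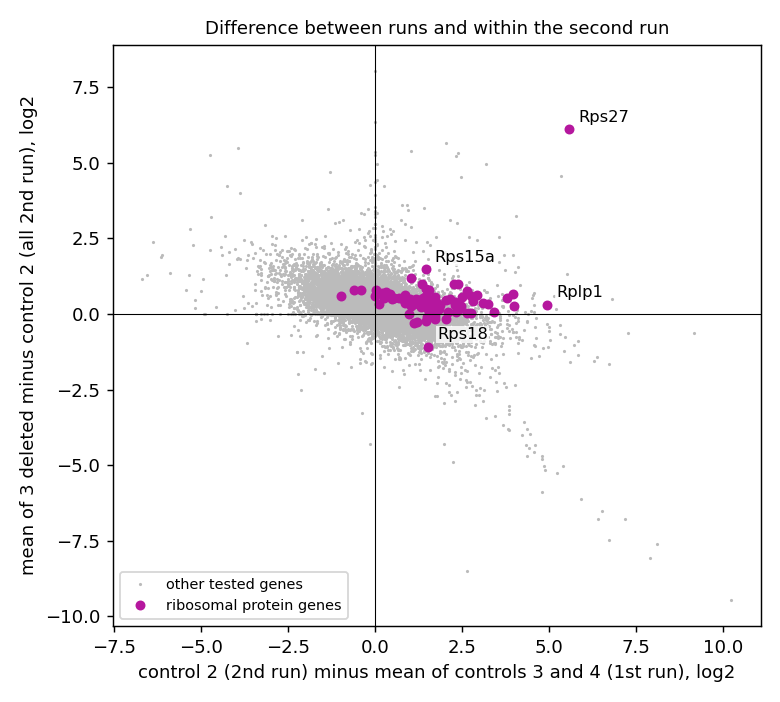
For each tested gene, the log2 difference between control 2 and the mean of controls 3 and 4 (horizontal axis, between runs) and between the mean of the 3 Hsp47-deleted libraries and control 2 (vertical axis, within the second run). The ribosomal protein genes (purple) spread far to the right, with a median of 1.54, and little upward, with a median of 0.42; Rps27 is the exception at 5.58 and 6.10.

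Rps27 (ENSMUSG00000090733, chromosome 3 from 90212522 to 90213651 on the minus strand), a zinc-binding protein of the small subunit, was the member called. It was listed at 0 in controls 3 and 4 and at a log2 value of 5.58 in control 2, and at 12.07, 11.24 and 11.72 in the 3 deleted libraries. The deleted libraries are all far above the controls, and controls of the 2 runs differ from each other as well. The log2 difference was 9.82 (standard error 1.37, limma, BH-adjusted p = 0.0485), a fitted size that depends on the added 1, since 2 controls are at 0. Without any single library but control 2 it was not called (limma, BH-adjusted p from 0.181 to 0.261).

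A gene with the same coding sequence stands elsewhere in the genome. Gm9846, which GENCODE M21 names Rps27rt (chromosome 9 from 114982366 to 114982739, minus strand, GRCm38), matches a Rps27 transcript at 100% over 341 bases, all 252 coding bases included. The paralogue Rps27l differs from Rps27 at 60 of the 252. The lines give the first 75 coding bases from GENCODE M21, with capitals where a base differs from Rps27, to show that reads of Rps27 and Gm9846 cannot be told apart within this stretch while those of Rps27l can.
Rps27: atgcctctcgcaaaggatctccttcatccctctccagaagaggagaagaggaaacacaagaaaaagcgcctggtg
Gm9846: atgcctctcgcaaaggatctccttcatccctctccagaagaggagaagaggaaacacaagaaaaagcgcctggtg
Rps27l: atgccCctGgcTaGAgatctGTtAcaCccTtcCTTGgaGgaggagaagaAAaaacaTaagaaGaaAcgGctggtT

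The linear value of Gm9846 was 1128, 1014 and 3545 in controls 3, 4 and 2 and 3402, 2536 and 3040 in the deleted libraries, so control 2 was above all 3 of them. With Rps27 and its 4 near-identical copies added together, the log2 value was 10.14, 9.99 and 11.82 in the controls and 12.92, 12.28 and 12.65 in the deleted libraries. The difference of this sum was 1.97 (limma, BH-adjusted p = 0.276), and it was no longer called. This summing was chosen after the data were seen. Rps27l, whose product replaces Rps27 in some ribosomes, had log2 values of 5.89, 5.93 and 7.37 in the controls and 7.00, 6.91 and 7.44 in the deleted libraries. Control 2 lies within the deleted range for Rps27l, and the difference was 0.72 (limma, BH-adjusted p = 0.445).

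Processed pseudogenes, copies of a spliced mRNA put back into the genome, are numerous for this family, and reads of a gene and a near-identical copy are hard to assign. Of the 82 members, 72 had at least 1 other gene in the table whose transcript aligned at 95% identity or more over at least 80% of the shorter transcript, 373 copies in all, 363 of them annotated as pseudogenes. The copies held 37.97%, 46.9% and 36.0% of the summed values of members and copies in controls 3, 4 and 2 and 28.5%, 30.8% and 28.4% in the deleted libraries. With every member summed with its copies, 79 were in the fit, 0 were called at an adjusted p under 0.05 by limma, 56 were higher at an unadjusted p under 0.05, and the median difference was 1.39. Single members changed more: the difference of 18 of the 78 moved by more than 1.5 times or turned, with 6 larger, 11 smaller and 1 (Rps18) of the other sign. Among the members described, the copy sum is given for those that moved by that much, except Rpl6, which stayed near 0. The 8 tested members without such a copy, among them Rpl4, Rpl8 and Rps9, had a median difference of 1.83 over all controls, 2.29 between the controls of the runs and 0.46 against control 2. Of these, 6 were higher at an unadjusted p under 0.05.

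Of the 185 copies that passed the filter, 66 were higher and 9 lower at an unadjusted p under 0.05, and 3 were called at an adjusted p under 0.05, all higher. Gm10260, a copy of Rps18, had linear values of 0, 0.46 and 5.30 in controls 3, 4 and 2 and 243, 181 and 364 in the deleted libraries (log2 difference 6.91, limma, BH-adjusted p = 0.00841). Gm10263, a copy of Rps28, was at 0, 0 and 4.07 against 169, 187 and 212 (log2 difference 6.79, limma, BH-adjusted p = 0.00684). Gm8730, a copy of Rplp0, was at 0, 0 and 0.94 against 19.6, 17.9 and 22.8 (log2 difference 4.07, limma, BH-adjusted p = 0.00684). In these copies, as in Rps27, control 2 was on the linear scale near the first-run controls rather than near the deleted libraries.

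Rps18 itself (chromosome 17 from 33951999 to 33956001), a protein of the head of the small subunit, was lower in the deleted libraries than in control 2. Its log2 value was 8.30, 8.12 and 9.74 in controls 3, 4 and 2 and 8.60, 8.25 and 9.13 in the deleted libraries, so control 2 was above all 3. The difference was -1.08 from control 2 and -0.06 from all controls (standard error 0.49, limma, BH-adjusted p = 0.962). With its 3 copies added, the difference over all controls was 0.66. Gm10260 matches 452 of its 456 coding bases, and the stretch with the most differences (coding bases 297 to 371) is shown with the 2 that differ in capitals.
Rps18: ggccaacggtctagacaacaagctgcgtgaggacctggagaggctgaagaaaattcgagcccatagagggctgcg
Gm10260: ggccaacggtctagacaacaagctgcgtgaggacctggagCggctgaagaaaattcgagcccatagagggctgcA

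Other copies were lower in the deleted libraries than in control 2. Rpl38-ps2 was at linear values of 242, 462 and 2105 in controls 3, 4 and 2 and at 15.5, 0 and 10.6 in the deleted libraries, while Rpl38 itself was at log2 values of 7.72, 7.60 and 9.81 and 10.44, 10.08 and 10.42. The sum of Rpl38 and its copies differed by 0.39, against 1.94 for Rpl38 alone. Rpl34-ps1 was at 39.2, 49.1 and 211 in the controls and 5.49, 5.92 and 7.05 in the deleted libraries, and Gm10443, a copy of Rps28, at 158, 266 and 1274 against 307, 236 and 294. Rpl38 and its copy thus differed in opposite directions between libraries that share a run. Rps12, a protein of the small subunit, was listed at 0 in all 6 libraries, whereas Rps12-ps3, which matches a Rps12 transcript at 100% over 494 bases, ranged in linear value from 124 to 297 over the controls and from 335 to 645 over the deleted libraries.

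**Figure D5:**
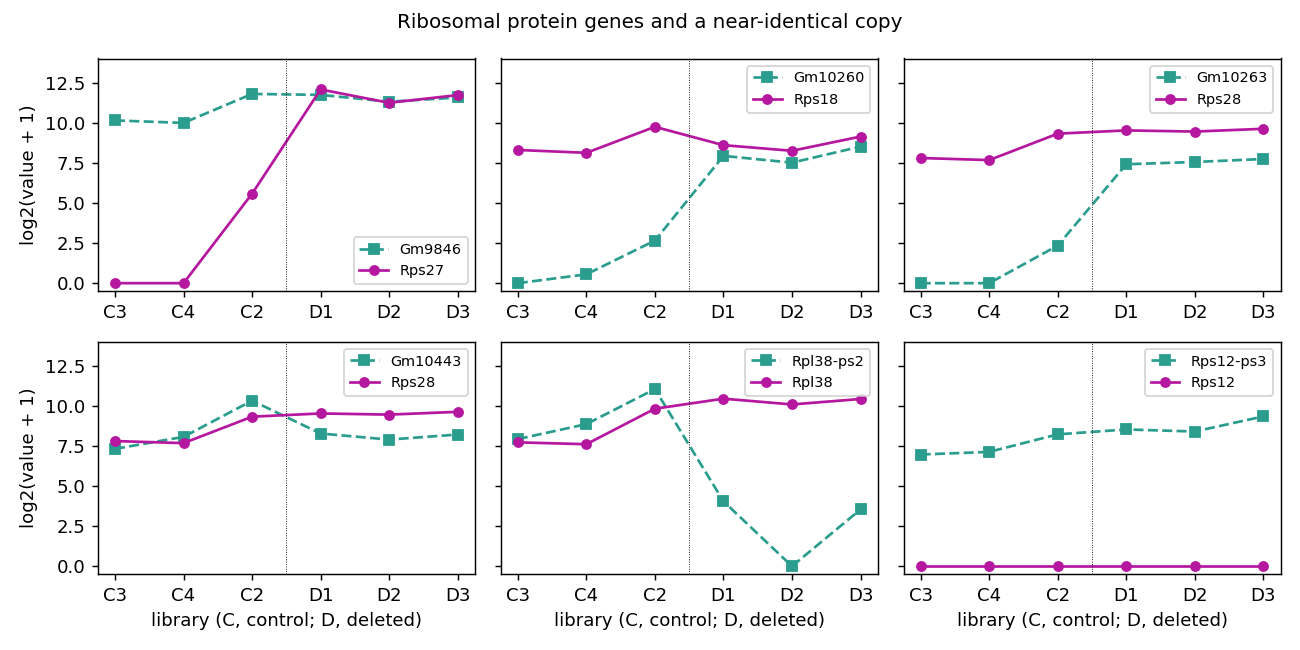
Log2(value + 1) of 5 ribosomal protein genes (circles) and a near-identical copy of each (squares) in controls 3, 4 and 2 (C3, C4, C2) and Hsp47-deleted libraries 1, 2 and 3 (D1, D2, D3), with Rps28 shown beside 2 copies. Lines only join the libraries. Rps27 rises from 0 in controls 3 and 4 to 5.58 in control 2 and over 11 in the deleted libraries, Gm10260 and Gm10263 have a like shape, Rpl38-ps2 lies above Rpl38 in the controls and below it in the deleted libraries, and Rps12 is at 0 throughout.

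After Rps27, the members with the smallest p included Rps15a, Rpl29, Rpl10, Rpl10a, Rpl34, Rpl7a, Rps6 and Rpl8, all higher in the deleted libraries and none past the adjusted threshold. Rps15a, a protein of the small subunit, had log2 values of 8.01, 7.75 and 9.34 in controls 3, 4 and 2 and 10.98, 10.20 and 11.27 in the deleted libraries. Every deleted library was above every control, and the difference of 2.46 (standard error 0.50, limma, BH-adjusted p = 0.148) was 1.48 against control 2. Rpl29 was at 5.20, 5.14 and 7.57 against 8.46, 8.58 and 8.60, a difference of 2.57 (standard error 0.63, limma, BH-adjusted p = 0.224) and of 0.97 against control 2. With its 19 copies added, Rpl29 differed by 1.82 over all controls and by 0.51 against control 2. Rpl10 and Rpl10a also did not overlap between the groups, with differences of 2.49 and 1.79 over all controls and of 0.98 and 0.82 against control 2. Their sums with copies differed by less, 1.31 and 0.91 over all controls and 0.49 and 0.58 against control 2. Rpl34, Rpl7a and Rpl8 differed by 1.84, 1.87 and 2.51 over all controls and by 0.80, 0.98 and 0.74 against control 2. With its 4 copies added, Rpl34 differed by 1.16 over all controls and by -0.0172 against control 2, so that its difference within the run was no longer seen, whereas Rpl7a with 16 copies kept 1.84 and 0.98.

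Rps6, which S6 kinases phosphorylate downstream of mTORC1, had log2 values of 6.70, 6.94 and 7.85 in the controls and 8.93, 8.32 and 9.92 in the deleted libraries. The groups did not overlap, with a difference of 1.89 (standard error 0.49, limma, BH-adjusted p = 0.252) and of 1.20 against control 2. With its 9 copies added, the difference was 0.36, and Rps6-ps4, which matches a Rps6 transcript at 100% over 750 bases, ranged in linear value from 602 to 953 over the controls and from 460 to 911 over the deleted libraries.

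The stalk of the large subunit, which recruits and activates the translation factors that hydrolyse GTP, consists of Rplp0 with dimers of Rplp1 and Rplp2. Rplp1 had the second largest difference of all members: log2 values of 4.92, 4.64 and 9.73 in controls 3, 4 and 2 and 10.24, 9.74 and 10.14 in the deleted libraries. Nearly all of it lay between the controls, with a difference of 3.61 over all controls (standard error 1.22, limma, BH-adjusted p = 0.284), 4.95 between the controls of the 2 runs and 0.31 against control 2. Rplp2 was at 7.50, 7.30 and 9.82 against 10.03, 9.55 and 10.32, a difference of 1.76. Rplp0 was at 6.76, 6.55 and 7.85 against 7.56, 7.41 and 7.74, a difference of 0.52, and of -0.28 against control 2. The 3 stalk genes, whose products are bound in 1 complex, thus did not share 1 size of difference between the runs.

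Rps10, Rps14 and Rpl37a showed the same kind of pattern as Rplp1. Their differences were 3.29, 3.06 and 2.92 over all controls and 0.64, 0.53 and 0.25 against control 2, and control 2 exceeded the first-run controls by 3.97, 3.79 and 4.01. Rps14, Rps26 and Rps28 lie on the side of the small subunit where mRNA leaves, and each was higher at an unadjusted p under 0.05, as were 75.6% of the tested members, with differences of 3.06, 1.92 and 1.27. With its 5 copies added, Rps28 differed by 0.78 over all controls (limma, unadjusted p = 0.229) and by -0.68 against control 2. On the side where mRNA enters, Rps3 and Rps9 were higher at an unadjusted p under 0.05 and Rps2 was not (differences of 1.18, 2.30 and 1.18), and Rps2 was -0.18 against control 2. With its 18 copies added, Rps2 differed by 1.87 over all controls (limma, unadjusted p = 0.00925) and by 0.59 against control 2, so that its direction within the run turned.

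Around the exit of the tunnel through which the nascent chain leaves the large subunit, 6 of 7 genes (Rpl17, Rpl19, Rpl26, Rpl31, Rpl35 and Rpl39) were higher at an unadjusted p under 0.05 and the other was Rpl23a, with differences from 1.08 to 1.49. This share, 85.7%, stands beside 75.6% of all tested members and 14.5% of all tested genes. Their median difference from control 2 was 0.21, and Rpl31 with its 7 copies added differed by 0.37 over all controls (limma, unadjusted p = 0.296). The products of Rpl5, Rpl11, Rpl23 and Rpl26 bind Mdm2. Rpl5 had log2 values of 5.84, 6.07 and 5.36 in the controls and 5.57, 5.78 and 7.09 in the deleted libraries, which overlap, and a difference of 0.40 (limma, BH-adjusted p = 0.682). For the row of Rpl5 alone, only Hsp47-deleted library 3 was above the controls. One of its 4 copies, Gm15500, matches a Rpl5 transcript at 100% over 1018 bases, and with the copies added the log2 value was 6.20, 6.29 and 7.85 in controls 3, 4 and 2 and 8.40, 8.18 and 9.23 in the deleted libraries. These sums did not overlap, and they differed by 1.82 over all controls (limma, BH-adjusted p = 0.283, unadjusted p = 0.0079) and by 0.75 against control 2. Rpl11 was at 7.18, 7.72 and 8.64 against 9.19, 8.79 and 9.37, a difference of 1.27 without overlap. Rpl23 and Rpl26 differed by 0.93 and 1.36. Rps27a, which is made as a fusion with ubiquitin, differed by 1.11 over all controls and by 0.22 against control 2, and by 0.46 and 0.0348 with its 6 copies added. The 4 genes on chromosome X, Rpl10, Rpl36a, Rpl39 and Rps4x, differed by 2.49, 0.92, 1.39 and 1.55, and Rpl36a alone of them was not higher at an unadjusted p under 0.05 (75% higher, against 75.6% of all tested members).

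Paralogues with a tissue-restricted pattern were at or near 0. Rpl3l, the form of Rpl3 found in heart and skeletal muscle, had log2 values of 0, 0 and 0.58 in controls 3, 4 and 2 and 0.10, 0.16 and 0.09 in the deleted libraries. Rpl10l, the testis form of Rpl10, was at 0 in 5 libraries and at 0.08 in control 2, and Rpl39l ranged from 0 to 0.59. With Rps12 these were the 4 members below the filter. Rps4l, a second form of Rps4x that the table lists under an older symbol outside the rule, was at 0.22, 0.39 and 2.93 in the controls and 3.54, 3.27 and 2.93 in the deleted libraries. Its value in control 2 was thus level with the deleted group.

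For 5 pairs with both forms tested, the ratio within a library removes whatever moves both forms together, as long as both values lie well above the added 1. The log2 ratio of Rpl22l1 to Rpl22 was -1.57, -1.85 and -2.02 in controls 3, 4 and 2 and -2.33, -2.14 and -1.73 in the deleted libraries, a difference of -0.25 with overlap (exact two-sided permutation test, p = 0.40, BH-adjusted over 5 pairs p = 0.50). For Rpl7l1 to Rpl7 it was -3.92, -3.17 and -4.99 against -5.17, -5.01 and -4.31, a difference of -0.80 (exact p = 0.20, BH-adjusted p = 0.333). For Rpl36al to Rpl36a it was 0.07, -0.02 and -0.93 against -0.58, -0.33 and 0.003, a difference of -0.01 (exact p = 1). These 3 ratios overlapped between the groups, as did that of Rps4l to Rps4x, which was -8.08, -7.51 and -6.95 against -6.88, -6.65 and -7.48, a difference of 0.51 (exact p = 0.20, BH-adjusted p = 0.333). The size and sign of this difference depend on the added 1, since Rps4l was at log2 values of only 0.22 and 0.39 in controls 3 and 4. The ratio of Rps27l to Rps27 did not overlap. It was 5.89, 5.93 and 1.79 in the controls and -5.07, -4.33 and -4.28 in the deleted libraries, a difference of -9.10 (exact p = 0.10, the smallest that 3 against 3 allows, BH-adjusted p = 0.333), whose size depends on the added 1 since Rps27 was listed at 0 in controls 3 and 4. With copies added to both forms it was -4.25, -4.06 and -4.45 against -5.92, -5.37 and -5.22, a difference of -1.25 and still without overlap.

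Within the controls of the first run, a few members departed from the rest in a single library. Controls 3 and 4 differed by more than 1 log2 unit at 5 of the 78 members, against 11.6% of all tested genes. Rpl18 was at 11.11 in control 3 and 6.84 in control 4, and Rpl6 at 10.41 and 7.68. Control 3 was thus the highest of all 6 libraries for both genes, which gave Rpl18 a difference of 0.84 with a standard error of 0.96 and Rpl6 one of -0.04 (standard error 0.70, limma, BH-adjusted p = 0.984). Rps19 (8.53 and 6.80) and Rps16 (7.99 and 6.58) were also higher in control 3, and Rpl35 (5.66 and 6.87) in control 4. The members with the highest mean log2 value included Rps24, Rpl39, Rps15a and Rpl30 (from 9.58 to 9.70) and those tested with the lowest were Rpl7l1, Rpl12, Rpl5, Rpl27a and Rpl27 (from 3.25 to 6.41). This order is that of the listed values without copies and is not read as an order of level. Rpl12, Rpl27 and Rpl27a differed by 0.80, 0.52 and 0.70 as listed. With their copies added, Rpl27 and Rpl27a differed by 1.54 and 1.58 (limma, unadjusted p = 0.00925 and 0.024), and Rpl12 by 0.71 over all controls and by -0.26 against control 2. Rps24 and Rpl30 differed by 1.81 and 1.07.

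Ribosomal proteins outside the symbol rule were read in the same way, except that near-identical copies were searched for the members only. No copy sum was therefore made for these genes. Rps3a1 was at log2 values of 3.68, 3.26 and 6.16 in the controls and 8.57, 8.35 and 9.22 in the deleted libraries, a difference of 4.35 (standard error 0.72, limma, BH-adjusted p = 0.0808) and of 2.55 against control 2. Fau differed by 1.83, and Rack1, listed under its older symbol, by 0.37 with overlap.

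Genes that make, regulate or use ribosomes were read from further lists, and 0 of their genes were called at an adjusted p under 0.05 by limma. At an unadjusted p under 0.05, 14.5% of all tested genes were higher, and the counts of each list are given with their share. Of 16 tested translation factors and related genes whose mRNAs carry a TOP tract, 7 (43.8%) were higher and 0 lower at an unadjusted p under 0.05, with a median difference of 0.78 and of 0.56 against control 2. Eef1a1, which brings aminoacyl-tRNA to the ribosome, was at 10.12, 9.93 and 11.25 in the controls and 11.74, 11.84 and 12.08 in the deleted libraries (difference 1.45), and Eif4b differed by 0.95. Ribosome assembly factors did not follow the members between the runs: their median difference was 0.31 over 35 tested genes, -1.19 between the controls of the 2 runs and 1.00 against control 2, and 1 (2.86%) was higher at an unadjusted p under 0.05 (Efl1, difference 0.88). Nop10, next in that list, differed by 1.34 over all controls and by -0.16 against control 2. For every tested assembly factor except Efl1 and Nop10, Hsp47-deleted library 3 was the highest of the deleted libraries. Fbl, for example, was at 5.59, 5.61 and 4.72 in controls 3, 4 and 2 and at 5.08, 5.31 and 7.09 in the deleted libraries. The size of the difference from control 2 thus leans on 1 library. All 3 deleted libraries were above control 2 at 28 of the 35, against 46.7% of all tested genes. Among 11 genes of RNA polymerase I and its factors, 2 (18.2%, near the share of all tested genes) were higher at an unadjusted p under 0.05, Taf1d (difference 1.00) and Ubtf (1.59, and -0.02 against control 2).

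Of 16 growth regulators around mTORC1 and Myc, 4 (25%) were higher at an unadjusted p under 0.05, led by Rps6kb2, which encodes an S6 kinase (difference 1.49, limma, BH-adjusted p = 0.252), and Mycn (1.17). Cdkn1a, the cell cycle inhibitor p21, was at log2 values of 8.67, 8.71 and 9.43 in the controls and 10.49, 10.98 and 10.93 in the deleted libraries. The difference was 1.87 without overlap (standard error 0.35, limma, BH-adjusted p = 0.115), and control 2 alone gave 1.37. With Bbc3, a p53 target that promotes cell death (difference 1.24), it was 1 of 2 of the 14 tested p53 genes higher at an unadjusted p under 0.05 (14.3%, the level of all tested genes at 14.5%). Of 8 tested genes that escort ribosomal proteins before assembly, 3 (37.5%) were higher at an unadjusted p under 0.05: Bccip (difference 1.10), which escorts Rpl23, Aamp (1.72) and Pdcd2l (1.12).

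Summed markers of cardiomyocytes, endothelial cells, leukocytes and fibroblasts, unlike those of mural cells, were also higher in control 2 than in both first-run controls. Such sums weigh most on the genes with the highest values, such as Fabp4 (endothelial) and S100a8 (leukocyte), at log2 values of 8.59 and 7.38 in control 2. Single markers went the other way: Vwf, Myh7, Itgam and Cd68 were lower in control 2 than in both first-run controls. The summed linear value of 11 cardiomyocyte markers was 112, 56.0 and 321 in controls 3, 4 and 2 and from 192 to 297 in the deleted libraries, with 10 tested and 2 higher at an unadjusted p under 0.05, where 14.5% of all tested genes were (Myh6 and Myh7, differences of 2.00 and 0.80). For 10 endothelial markers it was 240, 105 and 639 against 286 to 601, with 2 higher (Cldn5 and Pecam1, differences of 2.13 and 1.15). For 12 leukocyte markers, of which Ptprc was at 0 throughout, it was 41.0, 82.4 and 269 against 142 to 214, with 1 of 10 tested higher (Cd14, 1.22, followed by Cd79a, 1.32). For 8 mural markers it was from 169 to 294 against 129 to 194, with 1 higher (Mcam, 1.03) and Kcnj8 at -0.88. Against control 2, the median difference of the tested cardiomyocyte, endothelial, leukocyte and mural markers was -0.56, -0.43, 0.06 and -0.59. That of all tested genes was 0.29. Myh6, Myh7, Cldn5, Pecam1 and Mcam, at 0.55, 1.07, 0.28, 0.19 and 0.42, thus differed in sign there from the median of their list. The 10 fibroblast markers, none at 0 in any library, summed to 8379, 8075 and 11013 over controls 3, 4 and 2 and between 12617 and 14380 over the deleted libraries, with Postn and Tcf21 higher (differences of 4.41 and 2.08 over all controls and 4.24 and 1.01 against control 2). Postn, whose locus drives the Cre, was called (limma, BH-adjusted p = 0.00337). The part of these cells in the values of the ribosomal protein genes was not tested.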

How the data were processed

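Cells sorted for EGFP were lysed, total RNA was amplified (Ovation RNA-Seq System v2) and Nextera XT libraries were sequenced on an Illumina instrument. The submitters' processing notes name kallisto and mm10, with no version or annotation release. The deposited table holds log2(value + 1) for 28987 genes and 6 libraries in an unnamed linear unit. It gives no counts, so depth is unknown and no counting interval was computed. The authors' group means, fold changes and p-values in the same table were not used.

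Genes with a linear mean of at least 1 (15109) were fitted with limma 3.58.1 in R 4.3.3 (trended prior, 3 libraries against 3, no covariate), with Benjamini-Hochberg adjustment over all of them and a threshold of 0.05. The fit was tested on simulated data. Paralogue ratios were compared with exact permutation tests (scipy 1.17.1), and shares were not tested. Copies of the members were found by aligning their GENCODE M21 transcripts (GRCm38) to those of the other genes with blastn 2.17.0. Start windows are from RefSeq. Sample groups came from the labels. Title replicate numbers 2 and 3 occur in both groups, but nothing ties them to a shared animal or day, so they were not used as a block.

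Genes named are members called, the 10 with the smallest p in each direction, the 5 highest and 5 lowest by mean, members of role lists or at 0 throughout, and the first 2 by p of each other list. Further members, among them Rps10, Rpl37a, Rpl38, Rpl18, Rps16 and Rps19, the members in single counts, the assembly factor Fbl and all copies, were named after their values were seen. The members and lists were chosen with earlier results of these data known. Alternatives changed the filter, pseudocount, scaling, trend, length correction, run, block and libraries, and summing with near-identical copies, the count above control 2 and 2 of the 5 ratios (Rps27l to Rps27 and Rps4l to Rps4x) were chosen after seeing the data. Some genes that this rule names are not reported here.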

Additional observations from a re-analysis of the deposited data

How the results depend on the processing

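The median difference of the members stayed above 0 under every alternative run, but its size and the number of members past a threshold did not hold. Over all genes, limma called 37 at a BH-adjusted p under 0.05, against 18 with libraries centred on their median, 14 with the length trend removed, 16 with a pseudocount of 0.1, 17 with quantile normalization, 16 rescaled to protein-coding genes, 19 with near-identical copies summed, and from 8 to 2768 without 1 library, the highest without control 2. The 1 member called, Rps27, became 0 in each of these 6 settings and with no filter on low values, and the count ranged from 0 to 62 without 1 library. At an unadjusted p under 0.05, the 59 members higher became 28 centred, 28 with the length trend removed, 30 with no filter, 22 with quantile normalization, 24 rescaled and 5 with the run as a covariate, where 1 was lower, and from 17 to 69 without 1 library. The median of 1.37 became 0.42 with the run as a covariate or in the second run alone, and from 1.13 to 1.90 without 1 library. The difference in summed share became 1.93 percentage points in the second run alone, and 3.05 without the 5 members of the highest linear mean. Without 1 library it was largest, at 4.79, when control 2 was left out. The 22 genes of the other lists at an unadjusted p under 0.05 became 9 centred, 7 with quantile normalization and 9 with the run as a covariate. With the replicate block, 0 genes (0.0% of all) and 0 members were called by limma, and 6 members had an unadjusted p under 0.05, against 9.64% of all genes higher. The same-numbered libraries' deviations correlated at 0.16 and 0.23 over genes, with only 2 shared numbers. The cause of these changes was not tested.

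Rps27 had a limma BH-adjusted p from 2.0e-05 without control 2 to 0.353 with the replicate block. Postn lost its call with the block alone (limma, BH-adjusted p = 0.188). The ratio of Rpl36al to Rpl36a was 0.63 in the second run alone and from -0.33 to 0.17 without 1 library, that of Rpl7l1 to Rpl7 was 0.16 in the second run alone, and that of Rps4l to Rps4x was -0.0535 in the second run alone and -0.56 with a pseudocount of 5. With the run as a covariate the sign turned for Nop10 (-0.16), Rpl23a (-0.0599), Rpl36a (-0.0886), Rplp0 (-0.28), Rps2 (-0.18), Rps27l (-0.25), Ubtf (-0.0173), Serpinh1 (-0.87) and Rpl6 (0.61). With the length trend removed it turned for Rpl27 (-0.00207), Rpl5 (-0.0506), Rpl7l1 (-0.0138), Rplp0 (-0.0192) and Serpinh1 (-0.35). Centred on the median it turned for Rpl5 (-0.0197), Rpl7l1 (-0.0251) and Serpinh1 (-0.34), rescaled for Rpl5 (-0.0149) and Serpinh1 (-0.34), with quantile normalization for Rpl7l1 (-0.0692) and Serpinh1 (-0.27), with the block for Serpinh1 (-0.28), and with copies summed for Rps18 (0.66). Without 1 library the value ranged from -0.0753 to 0.68 for Rpl5, from -0.56 to 0.81 for Rpl6, from -0.17 to 0.75 for Rpl7l1, from -0.36 to 0.45 for Rps18 and from -0.21 to 0.54 for Serpinh1.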
